A study of Rattus norvegicus with 12 samples.

Results

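Pla2g2a, Angptl7, Npy, Mfap4 and Kazald1 are 5 genes for secreted or matrix proteins, picked by symbol because earlier values of these same libraries were high in Control corneas and low in the other groups. All 5 were found among the 30452 genes of the table. The 12 rat cornea libraries fall into 4 groups of 3, labelled SF/HA-HEP-PAM, SF/HA, Alkali-burned and Control, from a study of a removable silk patch for the eye surface. The labels give no strain, age, sex or time after injury, leave the letters SF, HA, HEP and PAM unexplained, and do not say whether the patch groups were burned. Which libraries came from which animal is not stated, and p-values thus measure only the spread among these libraries, which may be technical. Because Control against the other groups chose the genes, those differences are described without a test, and tests are kept for the 3 comparisons among the other groups.

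The cornea is a clear plate with an epithelium on the outside, a collagen stroma kept by keratocytes beneath it and an endothelium on the inside. Proteins that these cells secrete build the matrix, defend the surface and act as signals between cells. Pla2g2a is the group IIA secreted phospholipase A2, an enzyme that cleaves membrane phospholipids and kills bacteria. Angptl7 is an angiopoietin-like protein made by keratocytes, known for keeping the cornea free of vessels and for a link to eye pressure. Npy is neuropeptide Y, a peptide transmitter best known from sympathetic nerves and brain. Mfap4 is a microfibril-associated glycoprotein of elastic fibres, and Kazald1 is a secreted protein with an IGF-binding-protein-like domain, a Kazal domain and an immunoglobulin domain.

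Reads on genes per library numbered 486264 to 1015788 for Control, 499061 to 957696 for SF/HA, 1173159 to 1265298 for the burned corneas and 1245606 to 2117399 for SF/HA-HEP-PAM. Cornea markers were present in all 12 libraries, Krt12, the keratin of corneal epithelium, at 1033 to 3655 FPKM and Kera, the keratocyte proteoglycan keratocan, at 49.2 to 794 FPKM. FPKM is a fragment count scaled by gene length and library depth. The length used by the authors is the genomic span of the gene with its introns, so levels of different genes compare only on that scale. Control replicate 1 differed from the other 2 in tissue markers, with 2542 FPKM of the collagen Col1a1 against 910 and 990, and 1697 FPKM of Krt12 against 3655 and 3354. In whole-cornea RNA, fewer cells of a type and less RNA per cell cannot be told apart.

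RefSeq's promoter table (build GRCr8) held 3 of the 5 genes, Pla2g2a, Npy and Kazald1. The 250 bases before the start of the first 2 are shown because Pla2g2a had the highest mean Control FPKM of the 5 and Npy followed another pattern than the rest. Motif matches are in capitals. Pla2g2a lies at chr5:156359475-156359724 and Npy at chr4:80211861-80212110, both on the plus strand.
Pla2g2a: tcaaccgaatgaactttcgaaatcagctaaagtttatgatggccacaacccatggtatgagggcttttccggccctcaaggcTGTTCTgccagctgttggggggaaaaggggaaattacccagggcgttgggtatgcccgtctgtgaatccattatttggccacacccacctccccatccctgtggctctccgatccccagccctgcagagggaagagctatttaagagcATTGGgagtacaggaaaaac
Npy: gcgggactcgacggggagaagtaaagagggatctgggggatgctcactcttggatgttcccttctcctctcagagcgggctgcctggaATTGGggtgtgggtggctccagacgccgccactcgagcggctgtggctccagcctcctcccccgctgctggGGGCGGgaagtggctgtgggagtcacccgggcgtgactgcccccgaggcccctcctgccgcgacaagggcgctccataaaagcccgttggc
Of 10 motifs searched on both strands, Pla2g2a held a glucocorticoid half-site (TGTTCT) at 168 to 163 bases before the start and an inverted CCAAT box at 20 to 16 bases before it. Npy held an inverted CCAAT box at 162 to 158 bases and a GC box (GGGCGG) at 91 to 86 bases before its start. Kazald1 held GC boxes at 82 to 77 and 69 to 64 bases before its start. Only the first 91 bases of its window come before every annotated transcript of the gene, and both GC boxes lie after them. Among 33469 promoter windows of the same length, 34.0% held CCAAT or its complement, 30.5% GGGCGG and 17.5% TGTTCT, so each match is common. The other motifs had no match in these 3 windows and were TATAAA (12.9% of all promoters), TGANTCA for AP-1 (6.34%), CACGTG, the E-box (5.59%), the full palindromic glucocorticoid response element, which contains most of the half-site (0.036%), the NF-kB site (0.314%), TTGCGCAA for C/EBP (0.14%) and GTCTAGAC for SMAD (0.173%). GC content was 52.4% in the window of Pla2g2a, 67.6% in that of Npy and 56.0% in that of Kazald1, against a median of 51.2% over all windows.

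In the coordinates of the deposited table (mRatBN7.2, per the submitters' processing notes), the genes sit on 4 chromosomes. Pla2g2a (ENSRNOG00000016945) is at chr5:151076442-151079014 and Angptl7 (ENSRNOG00000009589) at chr5:158932794-158937324, 7.854 Mb apart with 148 genes wholly between them. Npy (ENSRNOG00000046449) is at chr4:78881264-78888495, Mfap4 (ENSRNOG00000045683) at chr10:46167217-46170155 and Kazald1 (ENSRNOG00000016058) at chr1:243939647-243943059. Angptl7 runs on the minus strand inside the span of Mtor, the kinase of the growth pathway named after it, on the plus strand. The sources used here do not say whether counting used strand, so reads of this overlap cannot be assigned with certainty. Mtor had 2 to 17 reads per library, and Angptl7 had 23 to 636.

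All 5 genes had high FPKM in Control. Among 6112 genes that reached 1 FPKM in at least 3 libraries, Pla2g2a ranked 28 by mean Control FPKM, Mfap4 59, Npy 104, Angptl7 187 and Kazald1 448. FPKM here divides by the genomic span (2573 bp for Pla2g2a, 7232 bp for Npy), so these are not ranks of reads. Per Control library Pla2g2a had 970 to 2627 reads, Npy 752 to 2764 and Kazald1 83 to 160. In each of the other groups every library lay below every Control library for all 5 genes, which is what they were chosen for. Over all tested genes the same holds for 10% after burn, 9.08% in SF/HA and 11.7% in SF/HA-HEP-PAM, and nothing is read from the members' count. The median log2 difference of the 5 genes from Control was -2.40 after burn, -3.19 in SF/HA and -3.08 in SF/HA-HEP-PAM, beside 0.06, 0.0030 and 0.14 over all tested genes. These 3 differences share the Control libraries.

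**Figure D1:**
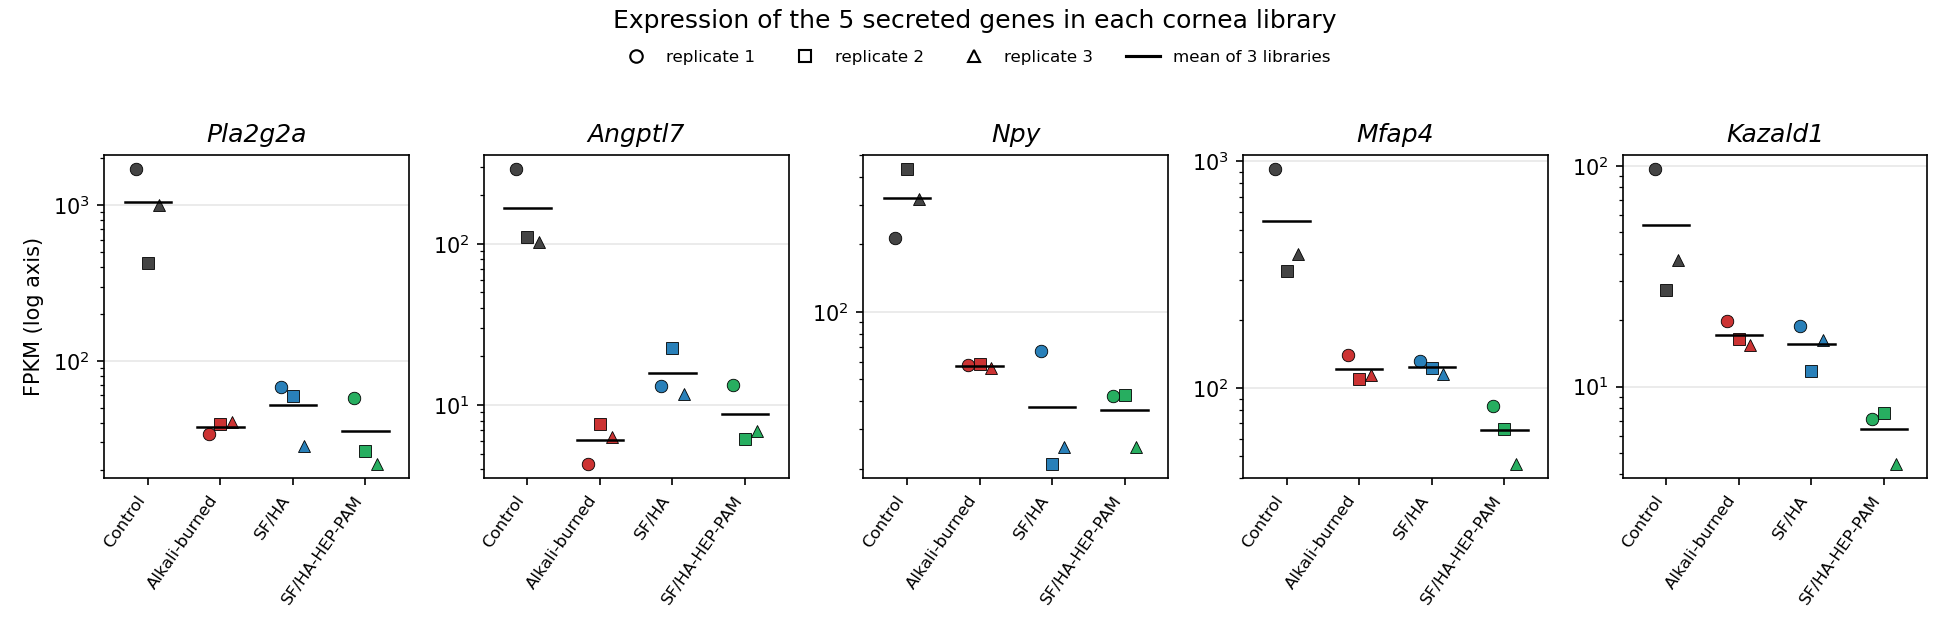
FPKM (log axis) of the 5 genes in the 12 libraries, by group; symbols mark the replicate number and bars the mean of 3 libraries. Every Control library lies above all 9 others for each gene, with the narrowest gap for Kazald1, and SF/HA-HEP-PAM is lowest for Mfap4 and Kazald1.

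Pla2g2a, the secreted phospholipase, was at 1694, 425 and 1005 FPKM in the Control replicates 1, 2 and 3 (mean 1042 ± 635, SD, n = 3). It was at 33.8, 39.3 and 40.5 FPKM after burn (37.9 ± 3.60), at 67.5, 59.2 and 28.4 FPKM in SF/HA (51.7 ± 20.6) and at 57.8, 26.4 and 21.8 FPKM in SF/HA-HEP-PAM (35.4 ± 19.6). The Control mean was 27.5 times that of the burned, 20.1 times that of the SF/HA and 29.5 times that of the SF/HA-HEP-PAM libraries, and the lowest Control library was still 10.5 times the highest burned one. Libraries of the 3 non-Control groups overlapped one another. Their limma log2 differences were 0.35 for SF/HA minus burn (adjusted p = 0.80, 95% interval -0.79 to 1.50), -0.22 for SF/HA-HEP-PAM minus burn (adjusted p = 0.798, -1.36 to 0.92) and -0.57 for SF/HA-HEP-PAM minus SF/HA (adjusted p = 0.529, -1.72 to 0.57). At this spread, changes of up to 1.50 on the log2 scale with SF/HA remain possible.

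Other secreted phospholipases gave little signal. Of the 11 other family genes, receptor Pla2r1 included, 10 stayed below 1 FPKM in every library and 4 of these had no reads (Pla2g1b, Pla2g2c, Pla2g2d and Pla2g3). Only Pla2g12a, a distant relative of group XII, was tested, at 4.99 ± 0.94 FPKM in Control, 2.98 ± 0.40 after burn, 4.22 ± 0.29 in SF/HA and 4.39 ± 1.09 in SF/HA-HEP-PAM, and it passed no test. Ptgs2, the inducible cyclooxygenase that acts on the arachidonic acid phospholipases release, was at 34.5 ± 24.3 FPKM in Control, 30.7 ± 14.2 after burn, 48.6 ± 9.63 in SF/HA and 36.8 ± 5.56 in SF/HA-HEP-PAM, and passed no test either. Its list, of cytosolic phospholipases and enzymes of the same route, had 3 tested genes. Of these 1 was called lower in SF/HA-HEP-PAM than after burn, where 3.71% of all tested genes were called lower, and the other comparisons had no call.

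Inflammatory cytokines are known to raise Pla2g2a in other tissues. Of 7 tested cytokine and acute-phase genes, 2 rose after burn, 3 in SF/HA and 3 in SF/HA-HEP-PAM against Control. Il6, an inflammatory cytokine, was at 2.64 ± 0.80 FPKM in Control and rose to 13.9 ± 5.56 after burn (log2 difference 1.99, adjusted p = 0.0164), 27.4 ± 13.8 in SF/HA (2.83, adjusted p = 0.00372) and 13.4 ± 3.69 in SF/HA-HEP-PAM (1.97, adjusted p = 0.0090), all by limma. The burn call for Il6 was lost when Control replicate 2 or 3 or Alkali-burned replicate 1 or 3 was left out (adjusted p up to 0.061). Il1b, the secreted interleukin-1 beta, rose from 10.1 ± 3.50 FPKM in Control to 94.4 ± 70.5 in SF/HA (2.90, adjusted p = 0.0105) and 72.6 ± 49.2 in SF/HA-HEP-PAM (2.58, adjusted p = 0.00765). Tnf, tumour necrosis factor, rose from 6.96 ± 2.69 FPKM in Control to 26.2 ± 8.81 after burn (1.79, adjusted p = 0.016), a call lost without Alkali-burned replicate 3 (adjusted p = 0.0621). Tnf was lower than after burn in both patch groups, at 6.16 ± 2.19 FPKM in SF/HA (-1.92, adjusted p = 0.0207) and 7.93 ± 3.54 in SF/HA-HEP-PAM (-1.63, adjusted p = 0.0126), and was the 1 gene of the list called in either comparison. The first of these calls was lost in 4 of 6 leave-one-out fits (without Alkali-burned replicate 2 or 3 or SF/HA replicate 1 or 2, adjusted p up to 0.102) and the second in 2 of 6 (when SF/HA-HEP-PAM replicate 1 or burned replicate 3 was left out, adjusted p up to 0.053). Lcn2, the acute-phase protein lipocalin 2, rose from 14.8 ± 4.66 FPKM in Control to 94.7 ± 56.0 in SF/HA-HEP-PAM (2.50, adjusted p = 0.0196), a call lost without Control replicate 1 or SF/HA-HEP-PAM replicate 3 (adjusted p up to 0.08). Calls took in 4.42% of all tested genes as higher after burn, 3.19% in SF/HA and 9.21% in SF/HA-HEP-PAM.

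Angptl7 was at 289, 109 and 103 FPKM in Control (167 ± 105). It was at 4.33, 7.67 and 6.35 FPKM after burn (6.12 ± 1.69), at 13.2, 22.6 and 11.8 FPKM in SF/HA (15.8 ± 5.86) and at 13.4, 6.15 and 6.91 FPKM in SF/HA-HEP-PAM (8.82 ± 3.99). The Control mean was 27.3, 10.5 and 18.9 times the respective means. All 3 SF/HA libraries lay above all 3 burned ones, with a mean 2.59 times higher. This difference did not pass the threshold over all genes (log2 difference 1.22, SE 0.43, 95% interval 0.27 to 2.17, adjusted p = 0.181 by limma), and groups that do not overlap in this comparison are common, at 9.7% of tested genes in this direction. The burned values rest on 23 to 44 reads, and the counting interval of the highest, 5.58 to 10.3 FPKM, overlaps that of the lowest SF/HA library, 8.75 to 15.5 FPKM. SF/HA-HEP-PAM overlapped both, at 0.42 against burn (adjusted p = 0.524) and -0.80 against SF/HA (adjusted p = 0.278).

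The other genes of the angiopoietin-like list ran the other way where they could be tested. In all, 6 of the 9 in the table stayed below 1 FPKM in every library and 2 were tested, Angptl4 and Angptl8, both known as inhibitors of lipoprotein lipase. Angptl4 was called higher than Control in each of the other groups. It rose from 1.13 ± 0.51 FPKM in Control to 6.97 ± 1.52 in SF/HA (log2 difference 1.92, adjusted p = 0.00176 by limma). The difference was 1.47 after burn (adjusted p = 0.00598) and 1.38 in SF/HA-HEP-PAM (adjusted p = 0.00345). With a pseudocount of 5 none of these calls held (0.96 in SF/HA). In SF/HA minus Control, Angptl8 rose from 0.50 ± 0.51 to 8.50 ± 5.13 FPKM (2.59, adjusted p = 0.0272). That call was lost without SF/HA replicate 2 or 3 or Control replicate 2 or 3 (adjusted p up to 0.0983).

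Mfap4 was at 922, 327 and 392 FPKM in Control (547 ± 326). It was at 141, 109 and 114 FPKM after burn (121 ± 16.9), at 131, 123 and 116 FPKM in SF/HA (124 ± 7.81) and at 83.2, 66.0 and 46.4 FPKM in SF/HA-HEP-PAM (65.2 ± 18.4). The Control mean was 4.51 times the burned, 4.43 times the SF/HA and 8.39 times the SF/HA-HEP-PAM mean. Burned and SF/HA libraries overlapped at nearly equal means (log2 difference 0.03, 95% interval -0.73 to 0.80, adjusted p = 0.982). All 3 SF/HA-HEP-PAM libraries lay below both, where 21.3% of tested genes lie wholly below burn and 9.69% wholly below SF/HA. Neither difference passed the threshold, at -0.92 (SE 0.34, adjusted p = 0.0826) against burn and -0.95 (SE 0.34, adjusted p = 0.113) against SF/HA by limma. With median-of-ratios scaling of the libraries, which lowers SF/HA-HEP-PAM as a whole, both passed, at -1.10 (adjusted p = 0.0275) and -1.16 (adjusted p = 0.046).

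Other microfibril and elastic-fibre genes did not move as 1 group. Of 6 tested, 1 rose after burn, 1 rose in SF/HA and 1 fell in SF/HA-HEP-PAM against Control. Mfap2, which binds fibrillin microfibrils, fell from 31.5 ± 16.8 FPKM in Control to 9.80 ± 2.74 in SF/HA-HEP-PAM (log2 difference -1.51, adjusted p = 0.0152), a call lost without SF/HA-HEP-PAM replicate 3 (adjusted p = 0.0642). Efemp2, the fibulin needed for elastic fibre assembly, rose from 7.03 ± 2.88 FPKM to 20.5 ± 4.56 after burn (1.46, adjusted p = 0.00582) and 23.2 ± 1.54 in SF/HA (1.65, adjusted p = 0.0032).

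Kazald1 had the smallest gap to Control. It was at 96.4, 27.4 and 37.5 FPKM in Control (53.8 ± 37.3), at 19.7, 16.4 and 15.4 FPKM after burn (17.2 ± 2.26), at 18.9, 11.7 and 16.2 FPKM in SF/HA (15.6 ± 3.60) and at 7.16, 7.61 and 4.47 FPKM in SF/HA-HEP-PAM (6.41 ± 1.70). The lowest Control library was 1.39 times the highest burned one, and the Control mean 3.13, 3.45 and 8.39 times the respective means. Kazald1 was 2.68-fold lower in SF/HA-HEP-PAM than after burn, with no overlap, as for 21.3% of all tested genes in this direction (log2 difference -1.32, SE 0.39, 95% interval -2.19 to -0.44, adjusted p = 0.0378 by limma). It was the only one of the 5 genes called in any of the 3 tested comparisons, 1 of 5 in SF/HA-HEP-PAM minus burn, where 11.1% of all tested genes were called and 3.71% were called lower. No member was called in SF/HA minus burn (0 of 5, background 2.44%) or in SF/HA-HEP-PAM minus SF/HA (0 of 5, background 4.37%) by limma, nor by voom on recovered reads. Unadjusted p-values were below 0.05 for 1 member in the former (Angptl7) and 2 in the latter (Mfap4 and Kazald1), beside 16.6% and 25.2% of all tested genes.

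The Kazald1 call is close to the threshold. It was lost whichever of the 6 libraries was left out (log2 differences -1.44 to -1.11, adjusted p 0.0625 to 0.131), with a pseudocount of 5 (-0.97, adjusted p = 0.0693) and with no filter on low values (adjusted p = 0.0819). The SF/HA-HEP-PAM values rest on 19 to 55 reads, and their counting intervals reach 6.98 to 9.96 FPKM at the upper end, below the lowest burned value but not below the lowest SF/HA library's interval (7.17 to 18.1 FPKM). Against SF/HA the difference was -1.17 (SE 0.39, adjusted p = 0.0925 by limma), also with no overlap, as for 9.69% of all tested genes in this direction.

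**Figure D2:**
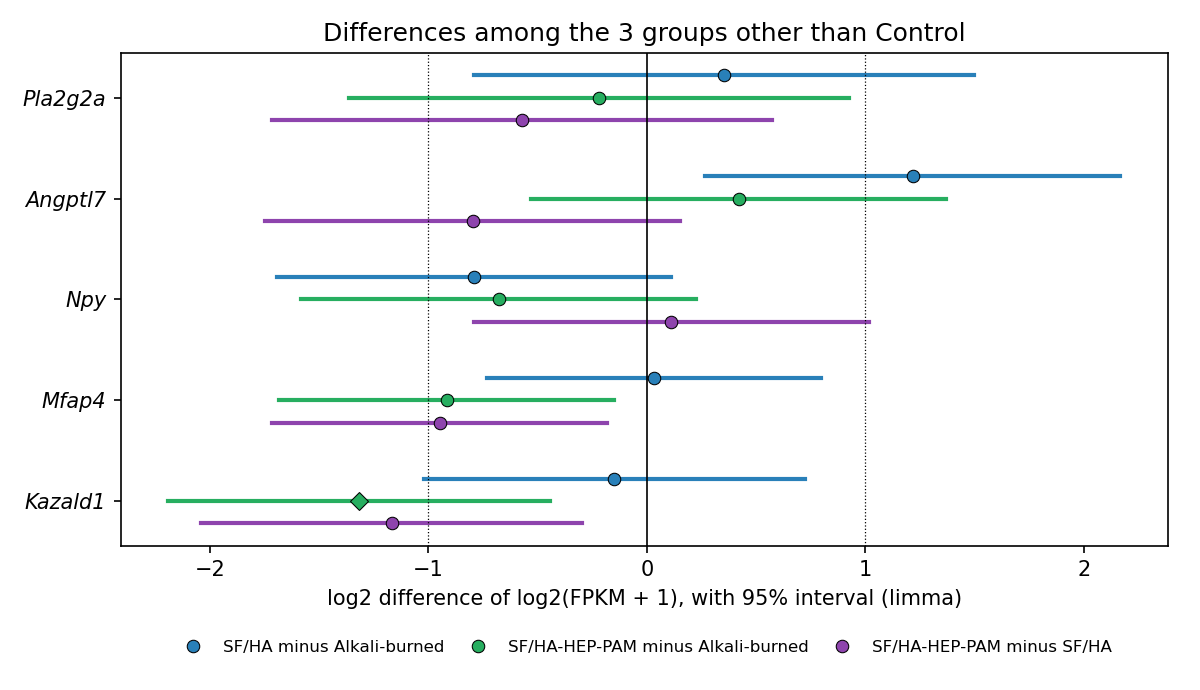
Log2 differences of log2(FPKM + 1) with 95% limma intervals for the 5 genes in the 3 comparisons that exclude Control; the diamond marks the called difference and dotted lines a log2 difference of 1 either way. Kazald1 in SF/HA-HEP-PAM minus Alkali-burned, at -1.32, is the 1 diamond.

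Genes that bind or carry insulin-like growth factors, to whose binding proteins Kazald1 is related, split by member. Of 9 tested, 2 rose after burn, 1 rose in SF/HA and 2 fell in SF/HA-HEP-PAM against Control, and 1 fell in SF/HA-HEP-PAM against burn and 1 against SF/HA. Igfbp7, a secreted IGF-binding-protein-like matrix protein, rose from 1.47 ± 0.57 FPKM in Control to 9.86 ± 2.91 after burn (log2 difference 2.13, adjusted p = 0.00121) and fell from there to 3.46 ± 0.75 in SF/HA-HEP-PAM (-1.26, adjusted p = 0.00728 by limma; -0.80 and not called with a pseudocount of 5). Igfbp6, which binds IGF-II, fell from 25.7 ± 17.2 FPKM in Control to 4.14 ± 0.81 in SF/HA-HEP-PAM (-2.21, adjusted p = 0.00329). Igfbp2, the most abundant of the list, was at 340 ± 195 FPKM in Control and 114 ± 35.6 in SF/HA-HEP-PAM (-1.48, adjusted p = 0.0175; adjusted p = 0.0714 without SF/HA-HEP-PAM replicate 3). Htra1, a secreted protease that cleaves matrix and IGF-binding proteins, rose from 3.02 FPKM in Control to 7.77 after burn (1.13, adjusted p = 0.0456), and Igfbp4, which holds IGF inactive, fell from 34.7 FPKM in SF/HA to 13.4 in SF/HA-HEP-PAM (-1.29, adjusted p = 0.0349). Each of these calls was lost in 5 of 6 leave-one-out fits, Htra1 keeping it without Control replicate 1 and Igfbp4 without SF/HA replicate 2 (adjusted p up to 0.151 and 0.123).

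Npy differed from the other 4 genes in its order among Control libraries. It was at 214, 431 and 318 FPKM in Control replicates 1, 2 and 3 (321 ± 109), so that replicate 1, the highest for the other 4, was the lowest for Npy. It was at 57.8, 58.8 and 56.5 FPKM after burn (57.7 ± 1.17), at 67.1, 21.1 and 24.98 FPKM in SF/HA (37.7 ± 25.5) and at 42.2, 42.7 and 25.1 FPKM in SF/HA-HEP-PAM (36.7 ± 10.03). The Control mean was 5.56, 8.51 and 8.75 times the respective means. All 3 SF/HA-HEP-PAM libraries lay below the narrow range of the burned ones, as for 21.3% of all tested genes, without passing the threshold (log2 difference -0.68, SE 0.41, adjusted p = 0.265 by limma). SF/HA spanned the other groups, at -0.79 against burn (adjusted p = 0.358), and SF/HA-HEP-PAM differed from it by 0.11 (95% interval -0.79 to 1.02, adjusted p = 0.893).

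No other gene of the neuropeptide Y system reached 1 FPKM. All 11 of the list in the table, with the receptors, the related peptides and the enzymes that process them, stayed below 1 FPKM in every library, and Npy2r, Npy4r, Npy5r, Ppy and Pyy had no reads. Summed over the list they were at 0.188 to 0.706 FPKM per library. FPKM over the genomic span is low for genes with long introns, so values below 1 FPKM do not by themselves show absence. Nerve and Schwann cell markers summed to 2.51 to 6.79 FPKM per library in Control, with 8 of 13 below 1 FPKM everywhere and Nefl at 0. A list of 12 genes of sensory and autonomic neuropeptides also holds Dbh, which codes for an enzyme. In it Dbh and Vip, markers of noradrenergic and parasympathetic nerves, had no reads, and 3 were tested (Calcb, Penk and Gal). In each group 1 of the 3 rose against Control. After burn this was Penk, the enkephalin precursor, named here after its values were seen, at 0 FPKM in all Control libraries and 2.32 ± 0.49 after burn (adjusted p = 0.00988, not called with a pseudocount of 5). With either patch it was Calcb, a calcitonin gene-related peptide, which went from 5.46 ± 1.86 FPKM in Control and 9.49 ± 3.48 after burn to 38.1 ± 26.2 in SF/HA and 75.4 ± 28.2 in SF/HA-HEP-PAM (SF/HA-HEP-PAM minus burn 2.84, adjusted p = 0.00221 by limma, higher in 3 of 3 libraries). Penk and Gal, the galanin gene, had differences of -0.94 and -0.84 in that comparison (adjusted p = 0.0581 and 0.378).

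**Figure D3:**
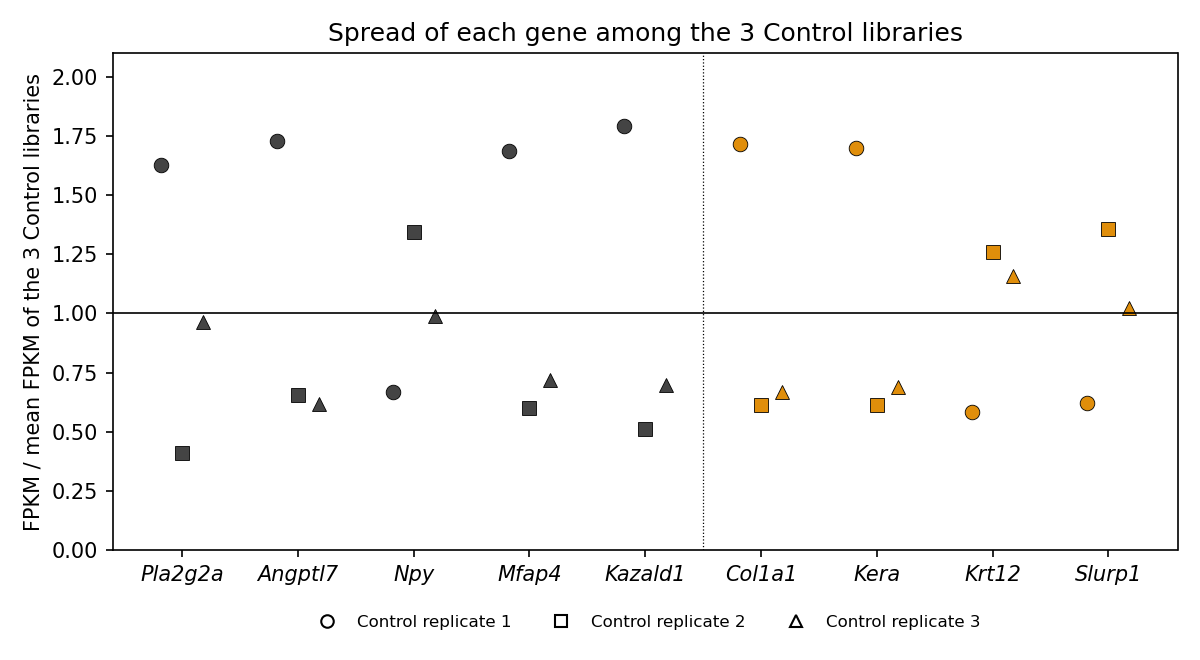
FPKM in each Control library divided by the gene's mean over the 3, for the 5 genes (dark) and 4 tissue genes (orange). Replicate 1 (circles) is highest for Pla2g2a, Angptl7, Mfap4 and Kazald1 as for the stromal Col1a1 and Kera, and lowest for Npy as for the epithelial Krt12 and Slurp1.

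The likeness of whole patterns placed Npy apart as well. Likeness was Pearson's r of log2(FPKM + 1) over the 12 libraries, ranked among 1947 genes with at least 5 FPKM in Control. It is a description, since the 12 libraries include the Control ones on which the members were chosen. Slurp1 (r = 0.965) and Cst6 (r = 0.949), both secreted proteins of squamous and corneal epithelium, were the most like Npy, and Anp32a (r = 0.933) came next. Slurp1 was at 1118, 2448 and 1847 FPKM in the Control replicates, the same order as Npy, and at 340 to 648 after burn, 183 to 469 with SF/HA, and with SF/HA-HEP-PAM 151 to 322. Stromal, as a name for the set, is not borne out for Npy by these values, and the 5 are called secreted genes here.

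Each of the other 4 genes had a collagen among its 3 nearest genes. Nearest to Mfap4 were Kera (r = 0.991), Col6a1 (r = 0.988) and Col1a2 (r = 0.987), and nearest to Kazald1 were Ecrg4 (r = 0.986), Col1a2 (r = 0.980) and Olfml3 (r = 0.977), both of the latter secreted matrix proteins. Nearest to Pla2g2a were Chpf (r = 0.965), an enzyme of chondroitin chain synthesis, Col6a1 (r = 0.964) and the cartilage leucine-rich protein Chad (r = 0.957). Angptl7 was nearest to Chpf (r = 0.940), Col6a1 (r = 0.935) and the mitochondrial Mt-nd6 (r = 0.935). For the mean of all 5, the leading gene was Col6a1 (r = 0.986), followed by Col6a2 (0.976), Sparcl1 (0.971), Col1a1 (0.966), Col6a3 (0.960), Kera (0.959), Chad (0.955), NEWGENE_1308171 (0.954), Col1a2 (0.950) and Pdgfrl (0.948).

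These neighbours were picked for a pattern like that of the members, so their differences from Control are given without a test. Col6a1, a chain of the fine collagen VI filaments, was at 90.6 FPKM in Control, 20.2 after burn, 23.2 in SF/HA and 15.2 in SF/HA-HEP-PAM. Chad was at 43.7 FPKM in Control and 2.76, 3.01 and 2.38 in the respective groups. Of 9 tested stromal collagens, 5 fell after burn, 4 in SF/HA and 6 in SF/HA-HEP-PAM against Control and 0 rose, where 1.28%, 1.37% and 2.39% of all tested genes were called lower. Of 9 tested keratocyte markers, 2, 2 and 3 fell and 0, 0 and 1 rose. Aldh3a1 was among those that fell in each group and is also on the corneal epithelium list, so it is counted in both. The median log2 difference of the 9 was 0.45, 0.61 and -0.50, and 6, 5 and 2 of them were above Control. Of 7 tested secreted stromal matrix proteins, 3, 2 and 3 fell and 2, 1 and 0 rose, at a median log2 difference of 0.20, 0.25 and -0.75. These lists hold genes named above as neighbours (Col6a1, Col6a2, Col6a3, Col1a1, Col1a2, Kera, Chad and Sparcl1), so their counts are not independent of the choice of members. The 5 collagens called after burn and the 4 in SF/HA are all such neighbours. Nothing is read from their counts beside the shares of all tested genes. Lum and Dcn, the proteoglycans lumican and decorin, were not among those that fell after burn, and Dcn was at 336, 169 and 181 FPKM in Control against 471, 318 and 327 after burn.

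Markers of other cells moved with these differences, and their part in them was not tested. Macrophage markers summed to 90.2 to 127 FPKM in Control, 287 to 345 after burn, 186 to 330 with SF/HA, and with SF/HA-HEP-PAM 171 to 181, and 7, 6 and 6 of 8 tested rose against Control. Neutrophil markers summed to 155 to 198 FPKM in Control and 551 to 9755 in the other libraries, and 0, 1 and 2 of 4 tested rose against Control. The median sums, 649 after burn, 1322 in SF/HA and 1328 in SF/HA-HEP-PAM, lay far below the highest library of each group (3566, 8699 and 9755). Corneal epithelium markers summed to 4164 to 7522 FPKM in Control, 2309 to 3736 after burn, 2971 to 4239 with SF/HA, and with SF/HA-HEP-PAM 3818 to 4803, and 3, 2 and 2 of 10 tested fell while 0, 1 and 2 rose (Krt15 in both patch groups, lost in SF/HA without Control replicate 2 or SF/HA replicate 2, and Klf5 in SF/HA-HEP-PAM, lost in 4 of 6 leave-one-out fits, without Control replicate 1 or any 1 library of SF/HA-HEP-PAM). Myofibroblast genes, the contractile proteins of activated stromal cells, summed to 5.59 to 8.61 FPKM in Control, 60.9 to 97.6 after burn, 25.3 to 72.6 with SF/HA, and with SF/HA-HEP-PAM 18.6 to 30.5. Of 4 tested, 4 rose after burn, 3 in SF/HA and 2 in SF/HA-HEP-PAM against Control. Tagln, the actin-binding transgelin, rose from 0.295 ± 0.0574 FPKM in Control to 27.9 ± 10.99 after burn (log2 difference 4.42, adjusted p = 0.000537), and Acta2, smooth muscle actin, from 1.04 ± 0.20 to 15.5 ± 5.58 (2.97, adjusted p = 0.00677). Between SF/HA-HEP-PAM and burn, where Kazald1 was lower, 4 of 10 epithelium markers rose and 0 fell, and 3 of 4 myofibroblast genes, 2 of 9 keratocyte markers and 1 of 9 collagens fell. Corneal endothelium markers had 2 of 3 lower there, and macrophage markers 1 of 8 higher and 2 lower. Over all 6112 tested genes 451 were called higher and 227 (3.71%) lower in this comparison, and nothing is read from 1 collagen of 9. Tagln fell there to 6.27 ± 2.86 FPKM (-2.02, adjusted p = 0.0128; adjusted p = 0.052 without SF/HA-HEP-PAM replicate 1) and Acta2 to 3.94 ± 1.85 (-1.77, adjusted p = 0.0299), the latter call lost in 5 of 6 leave-one-out fits, all but that without SF/HA-HEP-PAM replicate 2 (adjusted p up to 0.104).

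To set the genes beside stromal expression, each was divided by the summed FPKM of 21 keratocyte and collagen genes, a ratio chosen after the values were seen. The sum was 5322 FPKM in Control replicate 1, 2022 and 2338 in the other Control libraries, 1626 to 2096 after burn, 1996 to 2175 with SF/HA, and with SF/HA-HEP-PAM 732 to 1229. Mfap4 per 1000 FPKM of the sum was 173, 162 and 168 in Control (167.7 ± 5.68), so the spread of its Control libraries shrank, and it was 67.9 ± 1.21 after burn, 59.2 ± 5.20 in SF/HA and 62.3 ± 6.02 in SF/HA-HEP-PAM. The lower Mfap4 of SF/HA-HEP-PAM overlapped both other groups on this scale, while the Control mean was 2.47, 2.83 and 2.69 times theirs.

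Angptl7 on the same scale was 50.8 ± 5.89 in Control, 3.55 ± 1.36 after burn, 7.67 ± 3.18 in SF/HA and 8.52 ± 2.97 in SF/HA-HEP-PAM. Pla2g2a was 320 ± 110 in Control against 21.7 ± 4.79, 24.95 ± 10.4 and 33.1 ± 12.7. Kazald1 was 15.9 ± 2.28 in Control, 9.63 ± 0.42 after burn, 7.44 ± 1.55 in SF/HA and 6.12 ± 0.30 in SF/HA-HEP-PAM, and its SF/HA-HEP-PAM libraries still lay below all burned ones. Npy behaved unlike the rest, its Control libraries spreading to 40.2, 213 and 136 (130 ± 86.7), and its lowest Control library was 1.11 times the highest burned one. Relative to the stromal sum the means of all 5 genes were lower in each of the 3 groups than in Control. The size of this depends on which genes are summed. Col1a1 and Kera were lower after burn (log2 differences -1.91 and -1.85), while Lum and Dcn, also in the sum, were not among those that fell. Beside these, Mfap4 was at -2.02 and Kazald1 at -1.39 after burn, and Angptl7, Npy and Pla2g2a were at -4.42, -2.40 and -4.54. Sums of other stromal genes were not tried.

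**Figure D4:**
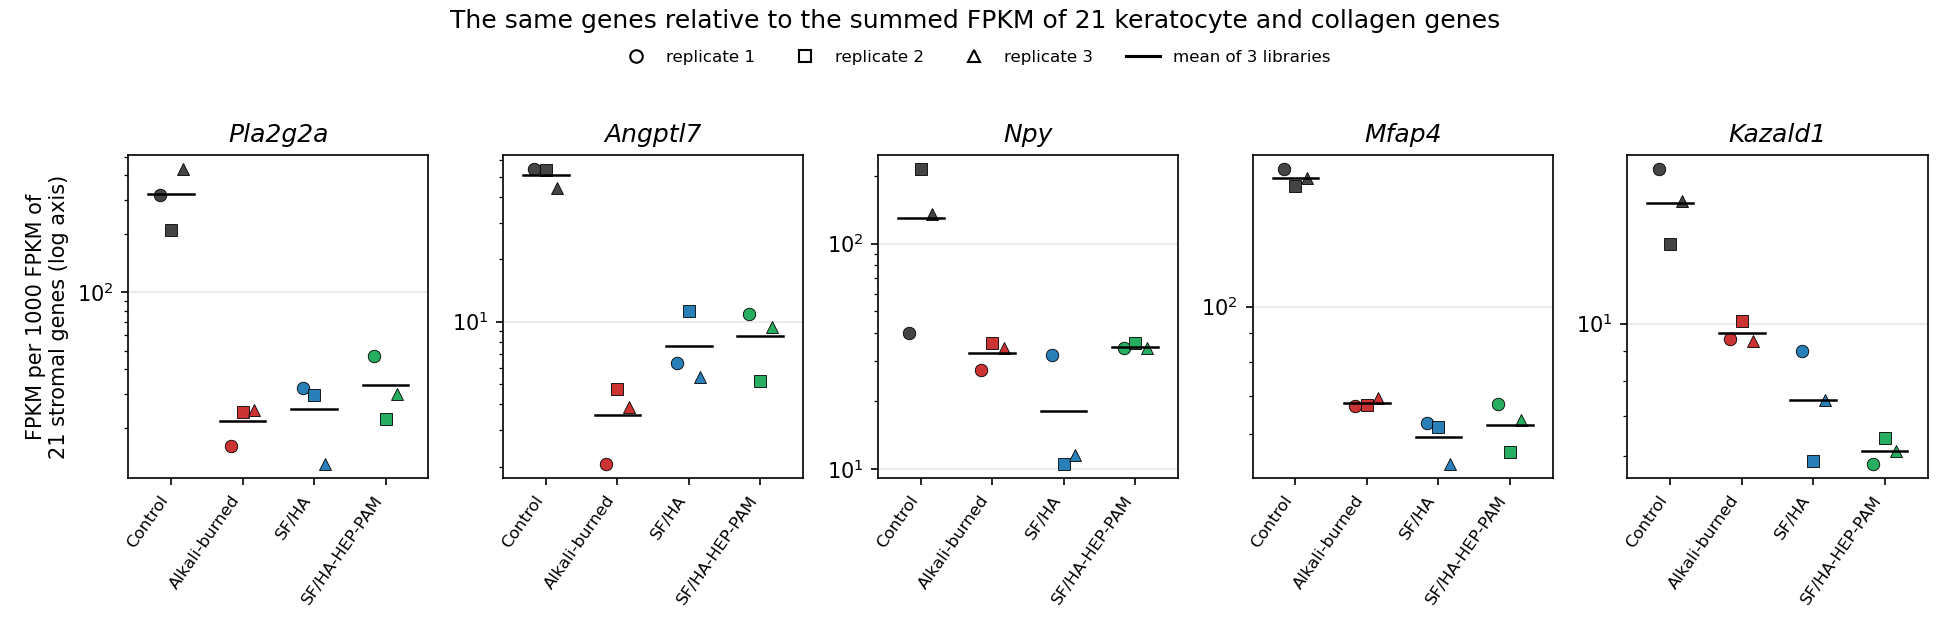
FPKM of the 5 genes per 1000 FPKM of 21 summed stromal genes (log axis) in the 12 libraries, by group; symbols mark the replicate number and bars the mean of 3. The Control libraries of Mfap4 draw together to 162 to 173, while those of Npy spread from 40.2 to 213.

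Without Control replicate 1 the differences from Control shrank for 4 genes and grew for Npy. For Kazald1 they became -0.87 after burn, -1.02 in SF/HA and -2.19 in SF/HA-HEP-PAM, against -1.39, -1.54 and -2.71 with all libraries. For Mfap4 they became -1.56, -1.53 and -2.48, against -2.02, -1.98 and -2.93, and for Npy -2.66, -3.45 and -3.34, against -2.40, -3.19 and -3.08. Pla2g2a and Angptl7 were at -4.08, -3.73 and -4.30 for the former and -3.94, -2.72 and -3.52 for the latter. The direction was lower than Control for all 5 genes in all 3 groups in this fit.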

How the data were processed

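Libraries were primed with poly(dT) oligonucleotides carrying sample barcodes and UMIs, per the labels' protocols. The authors deposited FPKM for 12 libraries. The series text names fastp, HTSeq-count and DESeq2, and the submitters' processing notes name bcl2fastq, fastp, STAR, featureCounts and DESeq2 with build mRatBN7.2; they differ on the counter, and neither says whether UMIs were collapsed. Gene lengths in the deposited table equal genomic spans, which gives FPKM of genes with long introns low values. The 108 lines naming no gene were left out. FPKM times length gave whole reads for 100% of values (tolerance 0.01 reads). Counting intervals (95%, exact Poisson) cover counting error only.

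limma 3.58.1 in R 4.3.3, with a variance trend, was run on log2(FPKM + 1), on 1 model of 4 group means and the 6112 genes that reached 1 FPKM in 3 or more libraries; a log2 difference on this scale understates changes of low genes. A call needs a Benjamini-Hochberg adjusted p below 0.05 over all tested genes and a log2 difference beyond 1; ± is the SD. All 5 members passed the filter. The members and gene lists were chosen with earlier results of these data known. The rule for names takes the members, per list the called genes whose higher group averages 5 FPKM or more (at most 6) and the most abundant gene, the genes most like the members, and genes overlapping one. It takes more genes than are printed: it was followed for the lists tied to a member's role, and of the other lists counts and a few of its genes are given. Lum, Dcn, Penk, and Slurp1 beside Npy were added after their values were seen. The code was tested on simulated data. Alternatives were pseudocounts, filters, quantile and median-of-ratios scaling, a replicate block, the compared libraries alone, library weights, voom on recovered reads and each library left out; division by the stromal sum was added after the data were seen. Figures used Python 3.11.15 and matplotlib 3.10.9.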

Additional observations from a re-analysis of the deposited data

How the results depend on the processing

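Among the 5 secreted genes the called result, Kazald1 in SF/HA-HEP-PAM minus burn, made the members' count 0 with a pseudocount of 5, with no low-value filter and in each leave-one-out fit (0 to 0), and 2 with median-of-ratios scaling, Mfap4 joining it. In SF/HA-HEP-PAM minus SF/HA the count of 0 became 2 with that scaling (Mfap4 and Kazald1, the latter at -1.36, adjusted p = 0.0456) and 1 with library weights (Kazald1, -1.18, adjusted p = 0.0217). Scaling by median-of-ratios moved the median of all genes by -0.13 in SF/HA-HEP-PAM minus burn, -0.15 in SF/HA-HEP-PAM minus SF/HA and -0.13 in SF/HA-HEP-PAM minus Control, and quantile normalization by -0.11, -0.21 and -0.25 and by -0.14 in burn minus Control; the share of calls that were higher in SF/HA-HEP-PAM minus burn went from 66.5% to 50.4% and 55%.

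Only uncalled differences turned sign. In leave-one-out fits Mfap4 in SF/HA minus burn ran from -0.0375 to 0.142 (below 0 without Alkali-burned replicate 2 or 3 or SF/HA replicate 1), Kazald1 there from -0.290 to 0.0308 (above 0 without SF/HA replicate 2), Pla2g2a in SF/HA-HEP-PAM minus burn from -0.631 to 0.0510 (above 0 without SF/HA-HEP-PAM replicate 3) and Npy in SF/HA-HEP-PAM minus SF/HA from -0.198 to 0.615 (below 0 in 4 of 6 fits: all but those without SF/HA replicate 1 or SF/HA-HEP-PAM replicate 3). With library weights Kazald1 in SF/HA minus burn was 0.00551, and with median-of-ratios scaling Npy in SF/HA-HEP-PAM minus SF/HA was -0.0994.

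The members' median difference from Control after burn was -2.72 with quantile normalization, -1.70 per summed stromal FPKM and -2.66 to -2.31 in leave-one-out fits; in SF/HA it was -2.92 with a pseudocount of 5, -3.32 with quantile normalization, -2.74 per stromal FPKM and -3.17 to -2.72 in leave-one-out fits; in SF/HA-HEP-PAM it was -2.94, -3.30, -1.59 and -3.34 to -2.83 respectively, and -3.28 with median-of-ratios scaling.

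Counts of all called genes moved more. SF/HA minus burn (149) gave 88 with no filter, 71 from the compared libraries alone, 89 with a pseudocount of 5, 234 with voom and 74 to 183 in leave-one-out fits. SF/HA-HEP-PAM minus burn (678) gave 336 with a pseudocount of 5 and 1911 with voom. SF/HA-HEP-PAM minus SF/HA (267) gave 173 at 5 FPKM, 143 with a pseudocount of 5, 814 with voom and 88 to 319 in leave-one-out fits. Burn minus Control (348) gave 217 with no filter, 188 with a pseudocount of 5, 659 with voom and 225 to 420 in leave-one-out fits. SF/HA minus Control (279) gave 174, 139 and 424 in that order and 93 from the compared libraries alone. SF/HA-HEP-PAM minus Control (709) gave 345 with a pseudocount of 5 and 1541 with voom. The cause was not tested.

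Replicate numbers gave no clear pairing of the libraries. Of same-number pairs 2 of 18 correlated above 0.1 (range -0.0935 to 0.155, median 0.0046), beside 2 of 36 pairs of different number (median -0.016). In all, 4 of 12 libraries correlated best with one of their own number. With 3 libraries per group these correlations cannot exclude a shared animal or batch. A replicate block gave 151, 668, 245, 312, 256 and 702 calls, in the order above, and changed no member call. Of 77 calls of other named genes, neighbours included, 49 held in every leave-one-out fit, 26 in every alternative run, and 37 were lost with the compared libraries alone, among them Il6, Il1b and Calcb in SF/HA minus Control, Efemp2 in that and in burn minus Control, Mfap2 and Igfbp2 in SF/HA-HEP-PAM minus Control, and Tnf in burn minus Control and SF/HA minus burn. The neighbours were picked for values high in Control, so their calls against Control that held are no support for those differences. The lowest read number of any member, 19 (Kazald1, SF/HA-HEP-PAM replicate 3), gives a counting interval of 2.69 to 6.98 FPKM; how much depth and how much the spread between libraries limits the comparisons was not tested.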
